A study of Homo sapiens with 6 samples.

Results

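The NF-kB subunits, their feedback regulators and a set of well-known NF-kB target genes were followed in HEK293 cells that had grown beside cells producing reactive oxygen species (ROS). They were chosen by name: 35 genes out of the 23686 in the count files, made up of 5 subunits, 5 proteins of the IkB family, 4 ubiquitin-editing feedback regulators, 6 receptor adaptors, 6 chemokines, 5 cytokines and 4 further targets. Of the 35, 34 had at least 10 reads in at least 3 libraries and were tested. IL6, the interleukin-6 gene, was the exception, with 0 to 3 reads in a library. IL8 is the older symbol of CXCL8 and is used here as in the files.

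NF-kB is a family of dimeric transcription factors built from RELA, RELB, REL and the products of NFKB1 and NFKB2. In resting cells IkB proteins hold the dimers in the cytoplasm, and signals from receptors for tumour necrosis factor, interleukin-1 or microbial products lead to the breakdown of IkB and the entry of the dimers into the nucleus. Among the genes they switch on are chemokines and adhesion molecules, and also their own inhibitors, which end the response.

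HEK293 is an established line derived from human embryonic kidney. All sampled cells had the genotype GFP+ (they carried green fluorescent protein) and were collected as GFP-positive cells by fluorescence-activated cell sorting, with 3 libraries in each group. The co-culture group had been kept for 10 h with HEK293 cells that carried DAAO (usually short for D-amino acid oxidase, which forms hydrogen peroxide as it oxidises D-amino acids), and 25 µM D-alanine was given. The control group held sorted GFP-positive cells labelled Wt controls. The labels give the same treatment text for all 6 samples, which leaves unstated whether D-alanine or partner cells were also present in the controls. Nor do they state whether libraries of a group came from separate cultures, and p-values then measure only the spread between these libraries. The comparison asked how gene expression in the GFP-positive cells differed after co-culture with the ROS-producing cells.

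Gene-assigned reads ranged from 19091085 to 36250314 in a library, and 1 read was worth 0.0279 to 0.0522 counts-per-million units (CPM, scaled by edgeR's TMM factors). Of the 34 tested members, 25 (73.5%) had their highest control level in control library 1, against 39.6% of all tested genes. That library was not apart for the members only. Without it, 20.8% of all tested genes passed an edgeR adjusted p of 0.05, against 4.82% with all 6 libraries. The libraries also differed in the median share of reads on the forward strand, which was 0.127% and 0.216% in co-culture libraries 2 and 3 and between 1.59% and 1.79% in the other 4. All 7 markers written down for HEK293 cells were detected, with a summed level of 1016 to 1178 CPM in co-culture and 947 to 999 CPM in controls. INA, 1 of the 7, passed the threshold (log2 fold change 0.38, edgeR adjusted p 0.0118). Of 10 leukocyte markers, 2 passed the count filter, CD14 and CD68, the list summed to 12.0 to 13.4 CPM in co-culture and 9.78 to 12.5 CPM in controls, and CD3E and TYROBP had 0 reads in every library. Of 5 endothelial markers, 0 passed the filter (sums of 0.550 to 0.838 and 0.303 to 0.574 CPM). The 5 fibroblast markers summed to 49.2 to 53.6 CPM in co-culture and 44.7 to 59.7 CPM in controls, and LUM was the 1 of them past the threshold (log2 fold change -0.67, edgeR adjusted p 0.0286). The part of these markers in the results was not tested. DAO, the cells' own gene of that enzyme, had 0 reads in every library, which allows at most 0.0838 to 0.156 CPM (3 reads, counting error only). In bulk RNA, fewer cells expressing a gene and less RNA per cell cannot be told apart.

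The promoter stretches below were picked because a kappaB motif, the DNA element that NF-kB dimers bind, was found in each. They come from the RefSeq promoter table of GRCh38.p14 (250 bases before to 50 after a gene's start), are written 5′ to 3′ in the gene's direction and end before the start. Capitals mark the motif match. It is the kappaB consensus in CXCL1, CXCL2, CXCL3, CCL20, IL32, NFKB1 and NFKBIA, and the shorter motif GGAATTTCC in IL8 and ICAM1. Members whose windows held neither motif, TNF among them, are not shown, nor are all members with a match. In CCL20, ICAM1 and NFKBIA the motif reads on the opposite strand.
CXCL1 (chr4:73869279-73869358, plus strand): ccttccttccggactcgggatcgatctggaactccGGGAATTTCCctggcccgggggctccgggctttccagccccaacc
CXCL2 (chr4:74099229-74099308, minus strand): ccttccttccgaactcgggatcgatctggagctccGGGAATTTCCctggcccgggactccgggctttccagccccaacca
CXCL3 (chr4:74038724-74038803, minus strand): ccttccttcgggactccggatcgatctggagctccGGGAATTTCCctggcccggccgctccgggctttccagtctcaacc
IL8 (chr4:73740443-73740521, plus strand): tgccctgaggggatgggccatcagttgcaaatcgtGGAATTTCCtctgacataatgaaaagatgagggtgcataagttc
CCL20 (chr2:227813728-227813807, plus strand): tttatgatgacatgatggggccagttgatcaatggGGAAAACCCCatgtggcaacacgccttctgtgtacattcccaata
IL32 (chr16:3065269-3065348, plus strand): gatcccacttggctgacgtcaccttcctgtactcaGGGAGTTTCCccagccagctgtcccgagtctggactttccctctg
ICAM1 (chr19:10270899-10270977, plus strand): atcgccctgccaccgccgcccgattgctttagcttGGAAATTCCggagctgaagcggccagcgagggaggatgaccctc
NFKB1 (chr4:102501275-102501354, plus strand): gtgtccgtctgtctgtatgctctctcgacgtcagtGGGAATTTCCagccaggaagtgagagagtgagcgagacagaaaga
NFKBIA (chr14:35404786-35404865, minus strand): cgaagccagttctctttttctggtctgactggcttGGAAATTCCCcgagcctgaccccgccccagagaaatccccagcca

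The stretches of CXCL1 and CXCL3 were identical at 73 of 80 positions and those of CXCL1 and CXCL2 at 64 of 80, aligned at the match without gaps. The match lay 79 bases before the start in CXCL1, CXCL3 and CCL20, 78 in CXCL2 and 91 in IL8. The RefSeq table held 42 promoter windows for 28 of the 35 members, matched by symbol, with CXCL8 for IL8. RELB, NFKBIE, RIPK2, CCL2, LIF, CSF1 and IER3 were not matched. Both strands were searched. The kappaB consensus was present in 18 of the 28 members (64.3%) and in 13.3% of all 27305 genes in the table. GGAATTTCC can overlap the consensus and was added after IL8 and ICAM1 had shown no consensus match. It was present in 10 members (35.7%) and 0.56% of all genes. The members are known NF-kB genes, so a high share of matches follows partly from how they were chosen. Of the 5 members past the threshold that had a window, 3 held a consensus match, against 14 of 22 tested members not past it. GGAATTTCC was present in 3 of these 5 and in 7 of the 22. IL8 and ICAM1, for which GGAATTTCC was added, are among the 5, and no difference was tested. A match is a description of letters in a window, not a measured binding site.

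The NF-kB genes did not move as one block. Of the 34 tested members, 6 passed an adjusted p of 0.05 in edgeR's quasi-likelihood test (17.6%, where 4.82% of the 14740 tested genes passed). The members were named with earlier results of these data known, so this share may follow partly from the choice. CCL20, IL8, IL32, ICAM1 and NFKB1 were lower in co-culture, against a background of 2.16% of genes lower, and IER3 was higher, against 2.66% higher. The subunits other than NFKB1, the IkB proteins, the ubiquitin-editing regulators and the receptor adaptors had no gene past the threshold in edgeR, DESeq2 or limma-voom. At an unadjusted p under 0.05 the IkB family had 2 genes, the adaptors 1 and the ubiquitin-editing regulators and other subunits 0. Over the whole set there were 13 such members, where 23.0% of all tested genes met that limit. The groups did not overlap for 12 members (35.3%), 9 lower and 3 higher, which is close to the 29.1% over all tested genes. The median log2 fold change of the members was -0.05, beside -0.0019 over all tested genes.

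**Figure D1:**
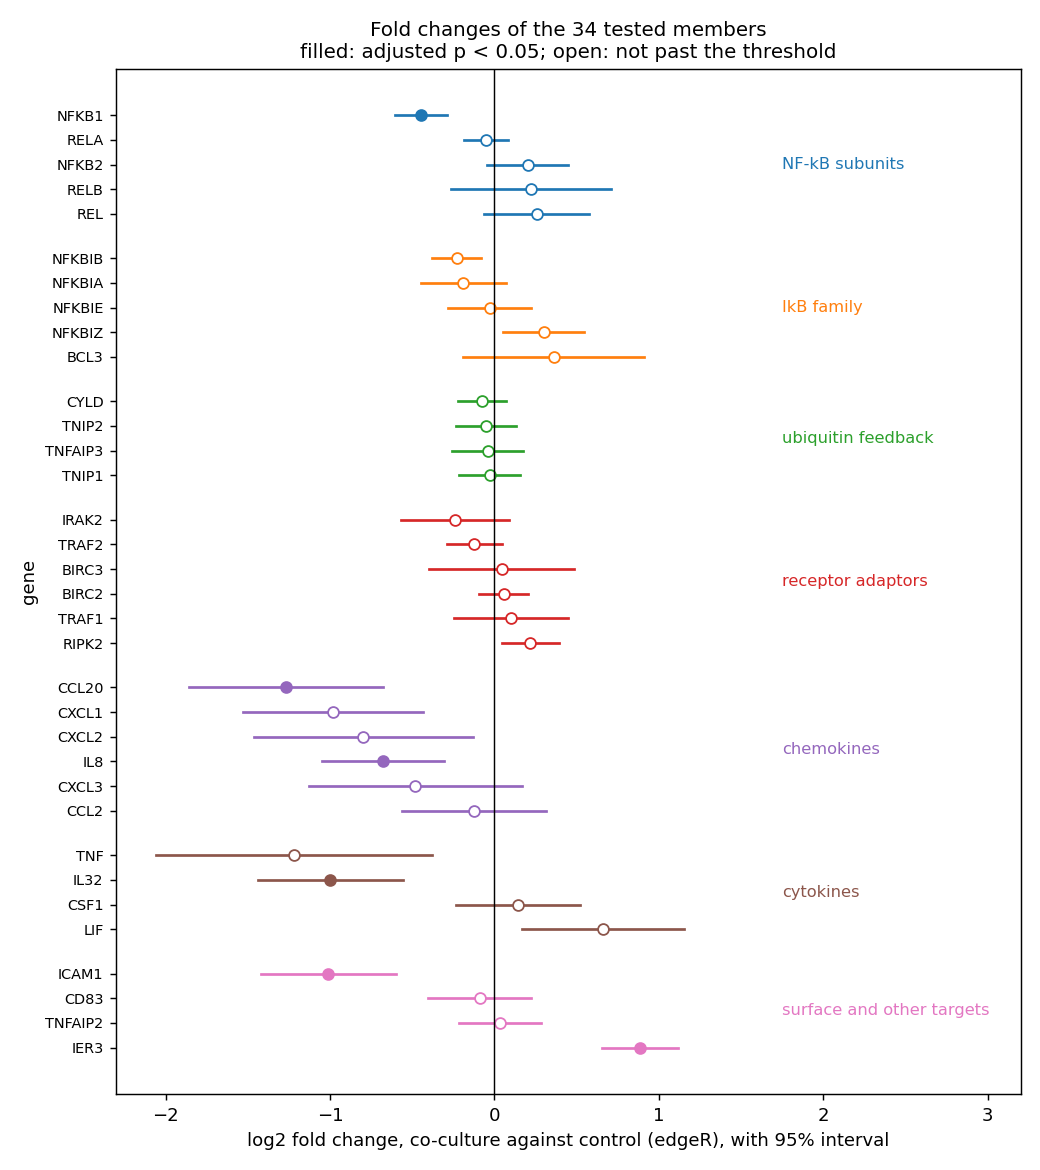
Log2 fold change of co-culture against control (x axis) for each of the 34 tested members (y axis), by role, with 95% intervals from edgeR's fit. Filled points passed an adjusted p of 0.05; all 6 chemokines lie left of 0, and IER3 lies farthest to the right at 0.88.

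All 6 chemokines had lower fitted levels in co-culture, and 2 of them passed the threshold. Of all 14740 tested genes, 7423 had a log2 fold change below 0 and 2.16% were called lower. For 5 of the 6 chemokines the highest control level was that of control 1. Chemokines are small secreted proteins that attract leukocytes. CCL20, the ligand of the receptor CCR6, stood at 13.0, 8.82 and 6.33 CPM in controls 1, 2 and 3 and at 4.80, 3.85 and 3.13 CPM in co-culture libraries 1, 2 and 3. The groups did not overlap, and the lowest control was above the highest co-culture library. Its log2 fold change was -1.27 (SE 0.26, edgeR adjusted p 0.0302), the largest decrease of the tested members. IL8, which draws neutrophils through CXCR1 and CXCR2, had 17.9, 17.9 and 11.7 CPM in the controls and 11.3, 8.93 and 9.39 CPM in co-culture. Control 3 lay just above co-culture library 1, and the log2 fold change was -0.68 (SE 0.17, edgeR adjusted p 0.0466).

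CXCL1, a neighbour of IL8 that also acts on CXCR2, missed the threshold narrowly. It had 14.2, 8.24 and 6.86 CPM in the controls and 4.95, 4.80 and 4.95 CPM in co-culture. The co-culture libraries were nearly level while the controls were spread, and the log2 fold change, -0.98 with an SE of 0.24, came with an edgeR adjusted p of 0.0512. CXCL2 had 3.94, 2.24 and 1.88 CPM in the controls and 1.15, 1.71 and 1.68 CPM in co-culture. These groups did not overlap either, at a log2 fold change of -0.80 (95% interval -1.46 to -0.13, edgeR adjusted p 0.147). CXCL3 (log2 fold change -0.48, interval -1.13 to 0.17) and CCL2, a monocyte attractant (-0.13, interval -0.56 to 0.31), overlapped between the groups. CXCL2 and CXCL3 rested on 23 to 78 and 29 to 59 reads in a library. CXCL1, CXCL2 and CXCL3 are similar in sequence, and reads that map to several places are left out of STAR's gene counts. Reads from stretches that these genes share may therefore be missing from their counts.

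IL8, CXCL1, CXCL2 and CXCL3 sit together in the genome. In RefSeq (GRCh38.p14) IL8 and CXCL2 bound a stretch at chr4:73740569-74099195 that holds 9 protein-coding genes, of which 6 were tested here. Beside IL8, CXCL1, CXCL3 and CXCL2 these were CXCL6 and CXCL5, further ligands of the same receptors. All 6 had log2 fold changes below 0, and IL8 and CXCL5 passed the threshold. CXCL5 stood at 2.22 ± 0.608 CPM in the controls and 0.853 ± 0.0850 CPM in co-culture (SD, n = 3 each; log2 fold change -1.38, edgeR adjusted p 0.0228). CXCL6 had a log2 fold change of -0.70 (edgeR adjusted p 0.217). This stretch was chosen after the values of its genes had been seen.

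**Figure D2:**
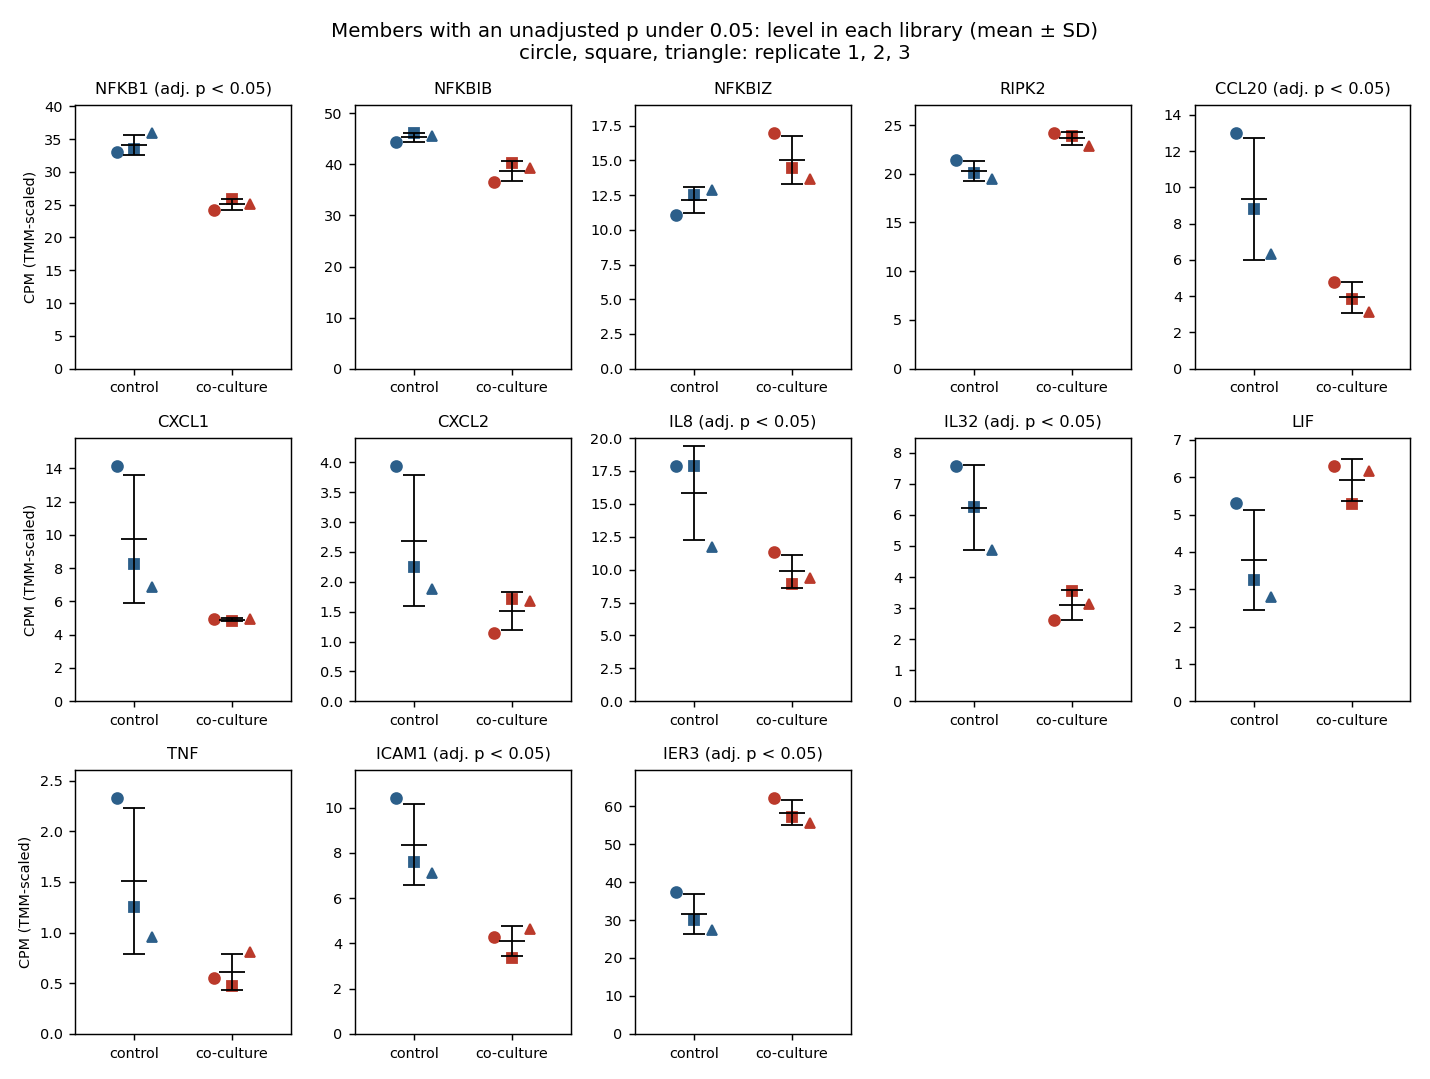
Level of the 13 members with an unadjusted p under 0.05 in each library, in CPM (y axis, from 0), for controls (blue) and co-culture (red); symbols mark the replicate numbers, bars the mean ± SD of 3 libraries. The co-culture points of CXCL1 lie between 4.80 and 4.95 CPM below all controls, while those of IER3 lie between 55.6 and 62.0 CPM above all controls.

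Of the 4 tested cytokines, 1 passed the threshold, IL32, which was lower in co-culture. IL32, a proinflammatory cytokine, had 7.58, 6.26 and 4.87 CPM in the controls and 2.60, 3.56 and 3.13 CPM in co-culture. The groups were apart, and the log2 fold change was -0.998 (SE 0.20, edgeR adjusted p 0.0216). TNF, the gene for tumour necrosis factor, was near the lower limit of detection with 10 to 46 reads in a library. It had 2.32, 1.25 and 0.959 CPM in the controls and 0.550, 0.475 and 0.810 CPM in co-culture, without overlap. Its log2 fold change of -1.22 (SE 0.38) did not pass (edgeR adjusted p 0.0913). LIF, a cytokine of the interleukin-6 family, had 5.31, 3.23 and 2.80 CPM in the controls and 6.30, 5.27 and 6.17 CPM in co-culture. Control 1 lay within the co-culture range, and the difference of 0.66 on the log2 scale (SE 0.22) did not pass (edgeR adjusted p 0.111). CSF1, the macrophage growth factor, had a log2 fold change of 0.14 (interval -0.23 to 0.52).

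Among the 4 other targets, ICAM1 fell, IER3 rose, and CD83 and TNFAIP2 did not pass. ICAM1, the endothelial and epithelial adhesion molecule that binds leukocyte integrins, had 10.4, 7.62 and 7.09 CPM in the controls and 4.30, 3.37 and 4.64 CPM in co-culture. Every control lay above every co-culture library, and the log2 fold change came to -1.01 (SE 0.19, edgeR adjusted p 0.0158). IER3, an immediate-early gene that regulates cell survival, rose from 37.4, 30.1 and 27.3 CPM in the controls to 62.0, 57.2 and 55.6 CPM in co-culture. It was the 1 member past the threshold that was higher in co-culture, with the smallest adjusted p of the tested members (log2 fold change 0.88, SE 0.11, edgeR adjusted p 0.00199). CD83, a surface protein of activated immune cells, and TNFAIP2 had log2 fold changes of -0.09 and 0.03, with intervals from -0.40 to 0.22 and from -0.21 to 0.28.

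Among the subunits NFKB1 fell and the other 4 did not pass the threshold. NFKB1, which encodes p105 and its product p50, had 33.0, 33.4 and 35.9 CPM in the controls and 24.2, 25.9 and 25.1 CPM in co-culture. Both groups were tight and far apart relative to their spread, and the log2 fold change was -0.45 (SE 0.07, edgeR adjusted p 0.00894). RELA, the main activating subunit, stayed within 64.6 to 71.6 CPM over all 6 libraries, and its 95% interval of -0.19 to 0.08 bounds any change on the log2 scale. NFKB2 (p100 and p52), REL and RELB had log2 fold changes of 0.20, 0.26 and 0.22 with overlapping groups (edgeR adjusted p 0.31, 0.323 and 0.59).

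Compared per length of the longest coding transcript in GENCODE release 29, RELA had the highest level of the subunits, 21.7 ± 0.802 CPM per kb in the controls. NFKB1 (8.35 ± 0.377) and NFKB2 (7.69 ± 1.18 CPM per kb) did not differ beyond their spread there, and RELB (1.64 ± 0.528) and REL (0.885 ± 0.161 CPM per kb) were the lowest. In co-culture NFKB2 stood at 8.82 ± 0.852 CPM per kb and NFKB1 at 6.13 ± 0.212. The ratio of NFKB1 to NFKB2 on this scale was 0.895, 1.20 and 1.22 in controls 1, 2 and 3 and 0.753, 0.671 and 0.669 in co-culture libraries 1, 2 and 3. The groups did not overlap, and an exact two-sided permutation test gave p = 0.1, the smallest value that 3 against 3 libraries allow. With groups apart, this test can return no other value. The ratio was also picked after the levels had been seen, so the test decides nothing.

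The IkB family showed no gene past the threshold. NFKBIB (IkB-beta) came closest, at 44.4, 46.1 and 45.6 CPM in the controls and 36.5, 40.2 and 39.3 CPM in co-culture. Its groups were apart, by -0.23 on the log2 scale (SE 0.07, edgeR adjusted p 0.076). NFKBIZ, a nuclear member that works as a cofactor for selected targets, had 11.1, 12.5 and 12.9 CPM in the controls and 17.0, 14.4 and 13.7 CPM in co-culture. Here every co-culture library was above every control (log2 fold change 0.30, SE 0.11, edgeR adjusted p 0.145). NFKBIA (IkB-alpha), the classical feedback inhibitor, had 31.7, 24.2 and 22.5 CPM in the controls and 22.3, 22.9 and 23.3 CPM in co-culture. Control 1 alone was high, and the log2 fold change was -0.19 (interval -0.45 to 0.07). BCL3, a nuclear coactivator, had 4.55, 3.60 and 2.38 CPM in the controls and 5.50, 3.47 and 4.41 CPM in co-culture, with overlap, and differed by 0.36 on the log2 scale (SE 0.25, edgeR adjusted p 0.418). NFKBIE (IkB-epsilon) had a log2 fold change of -0.03 (interval -0.28 to 0.22).

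The ubiquitin-editing regulators differed least. TNFAIP3 (A20) and its partners TNIP1 and TNIP2, and the deubiquitinase CYLD, all of which restrain signalling upstream of the IkB kinase, had log2 fold changes of -0.04, -0.03, -0.05 and -0.08. CYLD had the largest of these, with 95.7, 106.4 and 108.9 CPM in the controls and 102.6, 94.3 and 98.5 CPM in co-culture. Its groups overlapped (SE 0.07, edgeR adjusted p 0.534). The 95% intervals of these 4 genes ran from -0.26 at the lowest to 0.18 at the highest on the log2 scale.

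The receptor adaptors carry signals from receptor complexes to the kinases. RIPK2, the kinase that serves the NOD receptors, had 21.4, 20.03 and 19.5 CPM in the controls and 24.2, 23.9 and 22.9 CPM in co-culture. The groups were apart, but the log2 fold change of 0.22 (SE 0.08) did not pass after adjustment (edgeR adjusted p 0.13). IRAK2, a kinase of the interleukin-1 and Toll-like receptor pathways, had 7.88, 7.04 and 5.87 CPM in the controls and 6.05, 5.99 and 5.56 CPM in co-culture. It had the largest absolute log2 fold change of the adaptors, -0.24 (SE 0.15, edgeR adjusted p 0.368), with overlap. The ubiquitin ligases BIRC2, BIRC3 and TRAF2 and the adaptor TRAF1 differed by 0.06, 0.04, -0.12 and 0.10 on the log2 scale (edgeR adjusted p from 0.367 to 0.924).

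**Figure D3:**
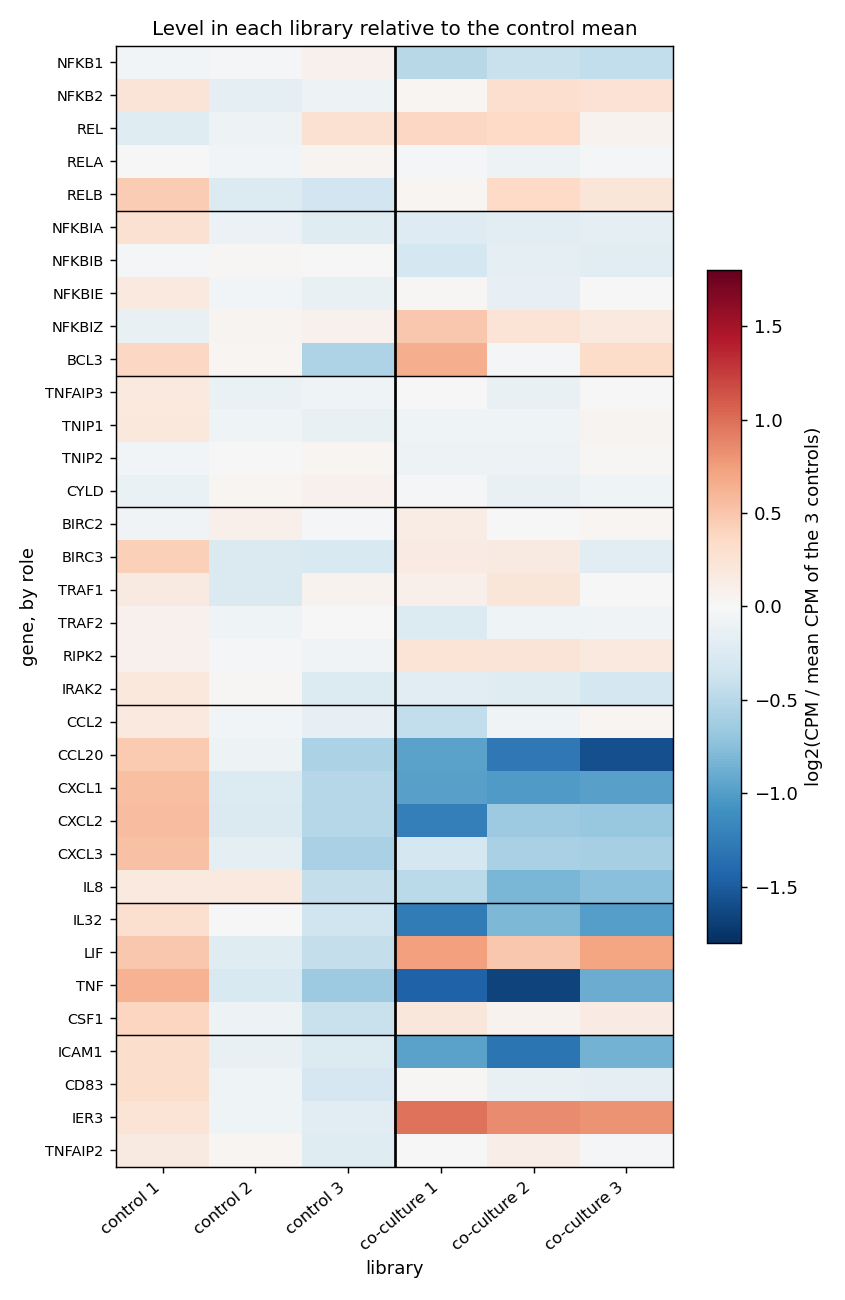
Level of the 34 tested members (rows, by role) in each library (columns) as log2 of CPM over the mean of the 3 controls, red above and blue below that mean. Control 1 holds the highest control level in 25 of the rows. The co-culture columns are blue for CCL20, CXCL1, CXCL2, CXCL3, IL8, IL32, TNF, ICAM1 and NFKB1, among others. They are red for IER3, LIF, RIPK2 and NFKBIZ, among others.

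The calls changed when control 1 was left out. Without control 1, 12 members passed, 6 higher and 6 lower, at a background of 20.8% of genes. NFKB2, RELB, RIPK2, LIF and CSF1 were then higher (log2 fold changes 0.33, 0.51, 0.26, 0.99 and 0.39) and NFKBIB and CXCL1 lower (-0.24 and -0.61), while IL8 missed the threshold (-0.57, edgeR adjusted p 0.0659). CCL20, IL32, ICAM1 and NFKB1 kept a log2 fold change of -0.96, -0.83, -0.82 and -0.47 without it. Of the 6 chemokines, 5 had their highest control level in control 1. Without it CXCL2, CXCL3 and TNF, which had not passed, differed by -0.41, -0.12 and -0.75 on the log2 scale. With the forward-strand class as a batch term, the difference between groups rests on co-culture library 1 alone against the 3 controls. Its spread is taken from the controls and from co-culture libraries 2 and 3, and the single library is assumed to vary like them. IER3 was the 1 member past the threshold in that fit (0.98, edgeR adjusted p 0.0418; 0.210% of all genes passed). There NFKB1, CCL20, IL8, IL32 and ICAM1 had log2 fold changes of -0.50, -0.96, -0.48, -1.25 and -0.96 with adjusted p-values from 0.165 to 0.455. For co-culture libraries 2 and 3, strand class and group cannot be told apart. They have no control in their own class, and no within-class value could be had there. Reads on the forward strand made up 0.234% to 3.07% of the reads over a tested member.

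IER3 also was the 1 member that passed without co-culture library 1, without co-culture library 2 and without control 2, where 0.838%, 0.505% and 0.442% of all genes passed. NFKB1, CCL20, IL8, IL32 and ICAM1 each lost their call in these 3 fits, with edgeR adjusted p-values from 0.0598 to 0.212, and stayed below 0 in log2 fold change. Without co-culture library 3, NFKB1, ICAM1 and IER3 passed, with 2.45% of all genes, and CCL20, IL8 and IL32 did not (edgeR adjusted p 0.0898, 0.136 and 0.0759). Without control 3 there were 8, with CXCL1 and TNF added (4.96% of all genes). Other filters, scalings and tools moved the members' count by at most 1. It was 6 with edgeR's own filter, with DESeq2's size factors in edgeR and with unstranded counts (4.83%, 4.83% and 4.39% of all genes). It was 7 without a filter and in DESeq2, each time with CXCL1 added, and 7 with total-count scaling, with NFKBIB added (4.50%, 7.04% and 5.97%). limma-voom called 5, without IL8 (4.42%).

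**Figure D4:**
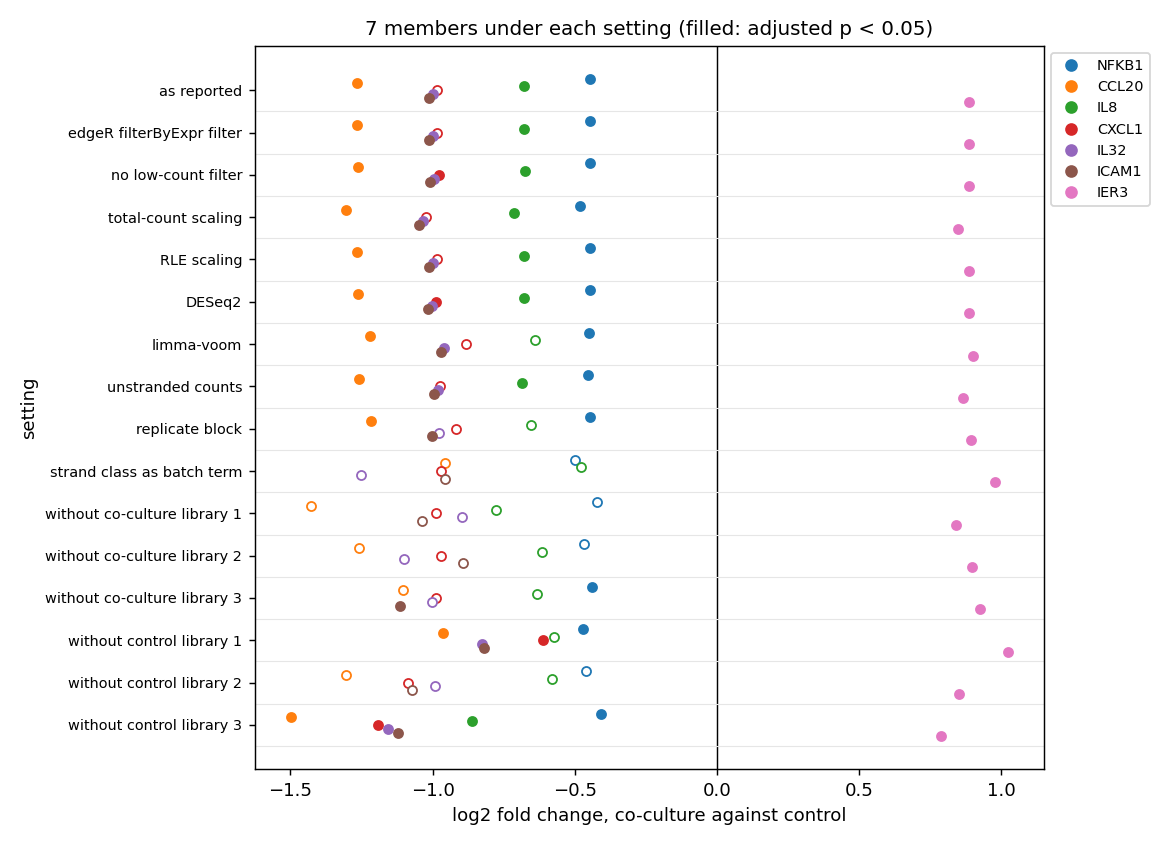
Log2 fold change (x axis) of the 6 members past the threshold and of CXCL1 as reported and under 15 other settings (y axis); filled points passed an adjusted p of 0.05. The sign of each of the 7 genes is the same in every setting shown, and IER3 is filled in all of them, whereas the other genes are open in several.

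Other genes of the pathway were taken from lists of receptors, adaptors and kinases, ubiquitin ligases and hydrolases, nuclear cofactors and further target genes, 113 in all, of which 95 were tested. Of these, 14 passed the threshold (14.7%, background 4.82%), 9 higher and 5 lower. The lists were chosen with earlier results of these data known, so this share may follow partly from the choice. No pathway gene was called lower when any 1 of the co-culture libraries or control 2 was left out, where 4, 4, 7 and 3 were called higher. Few genes of any kind were called in these fits. In the same order, 86, 59, 261 and 48 of all tested genes were higher and 37, 15, 96 and 17 lower. At least 14585 genes were tested each time, so the absence of lower calls does not set the pathway genes apart. Without control 1 there were 17 higher and 15 lower (background 20.8%), and without control 3 there were 8 and 4 (background 4.96%). The median log2 fold change of the 95 genes was -0.04. Among 15 tested receptors, TNFRSF12A, the receptor of the cytokine TWEAK, rose from 11.6 ± 1.81 to 23.2 ± 1.24 CPM (SD, n = 3 each; log2 fold change 0.997, edgeR adjusted p 0.00139). TNFRSF12A and PTGS2, described further on, were the 2 of these 14 genes that passed in all 15 other settings tried.

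Of 31 tested adaptors and kinases, 2 rose and 1 fell (9.68%, background 4.82%). TRAF5, an adaptor of tumour necrosis factor receptors, rose from 38.2 ± 0.574 to 48.8 ± 4.44 CPM (SD, n = 3 each; log2 fold change 0.35, edgeR adjusted p 0.031), and TBK1, a kinase of the IKK family, had the same log2 fold change of 0.35 (edgeR adjusted p 0.0384). FADD, the adaptor of death receptors, fell (-0.29, edgeR adjusted p 0.0344). The kinases that form the IkB kinase complex, CHUK, IKBKB and IKBKG, did not pass, with log2 fold changes of 0.06, 0.18 and 0.13. Of 15 tested ubiquitin ligases and hydrolases and their partners, SPATA2, which links CYLD to the receptor complex, was just past the threshold (-0.42, edgeR adjusted p 0.0485). It lost its call in 9 of the 15 other settings, limma-voom among them, where the list had 0 calls (adjusted p 0.056). Of 10 nuclear cofactors none passed in edgeR's test (DESeq2 called 1, CREBBP, and limma-voom 0). An unadjusted p under 0.05 was met by 6 of them, all lower, where 23.0% of all tested genes met that limit. The largest differences were those of NFKBID (log2 fold change 0.31, not among these 6), CREBBP (-0.28) and COMMD1 (-0.24).

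The further target genes changed in both directions, with more called higher than lower, whereas the members had 1 higher and 5 lower. Of 24 tested, 6 rose and 3 fell, which is 37.5% against 4.82% of all tested genes. This list too was chosen with earlier results known, and its median log2 fold change was 0.05. PTGS2, the inducible cyclooxygenase, rose from 8.88 ± 1.38 to 18.6 ± 1.41 CPM (SD, n = 3 each; log2 fold change 1.07, edgeR adjusted p 0.00139). CD44, a receptor for hyaluronan, rose from 29.3 ± 1.13 to 43.6 ± 0.730 CPM (SD, n = 3 each; 0.57, edgeR adjusted p 0.00164). KLF10, a zinc-finger transcription factor, GADD45B, a stress sensor, ZC3H12A, a ribonuclease that degrades cytokine transcripts, and TNFAIP8 rose by 0.79, 0.70, 0.53 and 0.32 on the log2 scale (edgeR adjusted p from 0.00416 to 0.0297). Beside CXCL5, the genes that fell were SELE, the adhesion molecule E-selectin (log2 fold change -1.47, edgeR adjusted p 0.0302, at 0.693 ± 0.149 against 1.97 ± 0.673 CPM, SD, n = 3 each), and BCL2L1, an inhibitor of cell death (-0.30, edgeR adjusted p 0.0346). CXCL5 had at most 55 reads in a library. Over the 15 other settings, SELE and CXCL5 each lost their call in 6 and BCL2L1 in 7. Of the genes that rose, TNFAIP8, ZC3H12A, KLF10, GADD45B and CD44 lost theirs in 7, 6, 4, 2 and 1. Several of the further targets, among them PTGS2 and KLF10, also answer to other transcription factors.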

How the data were processed

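RNA of 6 libraries of sorted HEK293 cells was measured by stranded mRNA sequencing. Raw read counts for every gene, unstranded and for each strand, were deposited by the authors in the layout of STAR's gene counting. STAR 2.53a and the build hg18 are named in the submitters' processing notes; annotation and trimming are not given in the sources used here. Reverse-strand counts were used, since the kit is stranded and they exceed the forward-strand counts. Genes with at least 10 reads in at least 3 libraries (14740 of 23686) were fitted in edgeR 4.0.16 (R 4.3.3) with TMM scaling, robust quasi-likelihood F tests, group as the only term and Benjamini-Hochberg adjustment at 0.05. Standard errors are the absolute log2 fold change over the square root of F, and 95% intervals use the test's total degrees of freedom. Libraries of a group differed beyond sampling noise (chi-square per degree of freedom 4.73 to 18.7). The fit was also run on simulated counts. These held no outlying library and no strand class, so that run cannot show how either affects the calls.

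Members and lists were chosen with earlier results of these data known. Values per library are given for members past the threshold, with an unadjusted p under 0.05 or with the largest change of their role; pathway genes are named when past the threshold, otherwise up to 3 per list. The 15 alternatives comprise 2 filters, 2 scalings, DESeq2 1.42.0, limma-voom (limma 3.58.1), unstranded counts, the replicate number as a block, the strand class as a batch term and each library left out.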

Additional observations from a re-analysis of the deposited data

How the results depend on the processing

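Over the 15 alternatives, the 34 tested members gave 510 log2 fold changes, of which 453 kept their direction and side of the threshold, 27 lost a call, 12 gained one and 18 changed sign; none of the sign changes belonged to the 6 members past the threshold. With the replicate block, 4 members (NFKB1, CCL20, ICAM1 and IER3), 166 genes (1.13%, 54 of them lower) and 5 pathway genes, 0 of them lower, passed. IL8 (-0.65) and IL32 (-0.98) lost their call. Deviations of same-numbered libraries from their group means had correlations of -0.04, -0.09 and -0.08, and no library correlated best with its own number. Deviations from means of 3 libraries cannot tell whether same-numbered libraries were handled together. With the forward-strand class as a term in the model, which leaves co-culture library 1 against the controls, 1 member, 31 genes and 2 pathway genes, both higher, passed. Leaving out each library in turn gave 1 to 12 members, 65 to 3058 genes and 3 to 32 pathway genes, the highest without control 1 and the lowest without control 2 (1 member also without co-culture library 1 or 2). Total-count scaling called 310 genes higher and 570 lower (392 and 318 with TMM), with the median gene at -0.04; members then were 1 higher and 6 lower. The sign changes were small: TNFAIP2 at -0.0013 with total counts; NFKBIE, TNFAIP3 and CD83 at 0.0275, 0.00719 and 0.0210 with the class term; and, with a library left out, NFKBIE from -0.0956 to 0.0642, TNFAIP3 from -0.0928 to 0.0555, TNIP1 from -0.0917 to 0.0736, CD83 from -0.230 to 0.0993, BIRC3 from -0.0894 to 0.298, TNFAIP2 from -0.0675 to 0.121, TRAF1 from -0.0109 to 0.172 and CSF1 from -0.0306 to 0.387, of which CSF1 passed the threshold at the top of its range, without control 1. The cause was not tested. Counting depth limits TNF, CXCL2 and CXCL3 most, and IL6 was not tested, with at most 3 reads.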
